A study of Mus musculus with 4 samples.

Results

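The TAM genes are a family of 3 receptor tyrosine kinase genes, Axl, Mertk and Tyro3, together with Gas6 and Pros1, which encode their 2 soluble ligands. All 5 genes were found by symbol among the 23480 Entrez identifiers of the deposited CPM files. The family was chosen by the difference in Axl CPM between the groups of these same libraries, so the comparison of the groups is given for its members as a description only. RNA was sequenced from mouse T cells in 4 libraries, of which 2 came from cells grown under Th9 conditions with TLA1 and 2 from cells grown under Th9 conditions alone. The series title writes TL1A, a cytokine of the TNF superfamily, and TLA1 is read here as that cytokine. All libraries share the Th9 condition, which drives helper T cells that make interleukin 9. The sources used here do not give the mouse strain or age, the agents of the Th9 condition or the length of culture. Whether the replicates are separate animals or separate cultures is not in the labels, so the spread behind each p-value can be a technical one.

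TAM receptors bind phosphatidylserine, a lipid shown on the outside of dying and of activated cells, through a bridging ligand. The ligands, GAS6 and protein S (the product of Pros1), hold the lipid with a vitamin K dependent Gla domain and the receptor with their other end. GAS6 activates all of the receptors, while protein S is known to activate TYRO3 and MERTK but not AXL. The family is best known in macrophages and dendritic cells, where it drives uptake of dead cells and restrains cytokine signalling, and mouse T cells that have been activated are known to make protein S.

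Axl lies on the minus strand of chromosome 7 (25756500 to 25788924 of mm10), Mertk and Tyro3 on the plus strand of chromosome 2 (128698915 to 128803162 and 119797740 to 119818104), Gas6 on the minus strand of chromosome 8 (13465374 to 13494535) and Pros1 on the plus strand of chromosome 16 (62854307 to 62929346). The coding sequences of the receptors are 63.5% to 64.0% identical in pairwise alignment, and no window of 25 bases is shared between any pair of them or between Gas6 and Pros1. The longest stretch that any pair of receptor genes shares is 14 bases. Of the members only Gas6 has a locus that overlaps another gene of the RefSeq table, Tmem255b, which had no read in any library. The nearest neighbour of Axl, Hnrnpul1, ends 232 bases away and had 133 and 146 CPM with TLA1, against 154 and 147 CPM with Th9 alone. CPM are reads in a gene scaled to the same total of reads in genes for every library.

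Axl and Pros1 are the members whose levels did not overlap between the groups. This also held for 48.1% of the 10324 genes that passed the filter on low counts. For each of the pair the 250 bases before the start used in a RefSeq promoter table are shown, on GRCm38.p6 (the assembly of mm10). For Pros1 that start, 62854307, is the edge of the locus. For Axl it is 25788733, inside the locus, and 191 of the 250 bases of the Axl window lie within the locus. Capitals mark matches on either strand to GGGCGG, the letters bound by SP1, and to TTCNNNGAA, the core letters of STAT sites.
Axl promoter, chr7:25788734-25788983, minus strand: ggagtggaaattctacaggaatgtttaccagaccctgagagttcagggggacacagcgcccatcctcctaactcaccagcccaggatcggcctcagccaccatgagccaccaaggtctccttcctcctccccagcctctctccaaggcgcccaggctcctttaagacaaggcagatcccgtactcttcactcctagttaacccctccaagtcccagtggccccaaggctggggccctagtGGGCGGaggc
Pros1 promoter, chr16:62854057-62854306, plus strand: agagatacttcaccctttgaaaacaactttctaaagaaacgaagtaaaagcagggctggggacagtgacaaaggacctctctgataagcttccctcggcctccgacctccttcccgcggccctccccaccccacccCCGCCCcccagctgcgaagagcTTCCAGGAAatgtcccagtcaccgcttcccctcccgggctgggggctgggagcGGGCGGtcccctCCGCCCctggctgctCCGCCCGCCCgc

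The Axl window held 1 match to GGGCGG, which begins 10 bases before the start. The Pros1 window held 5, the last 2 of them overlapping, and 1 match to TTCNNNGAA, which begins 92 bases before the start. Of all 32851 promoter windows of the same length, 32.7% hold GGGCGG and 7.02% hold TTCNNNGAA. The letters TGANTCA, which AP-1 and BATF dimers bind, are in 6.75% of all windows and in none of the 5 members' windows. The windows of Axl and Pros1 are 60.0% and 64.4% G or C, beside a median of 52.4% over all windows.

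Depth was 2979482 and 3081187 reads in the libraries with TLA1, and 4041633 and 3167270 reads in those with Th9 alone. A count of 3 reads, taken as the one-sided 95% limit for a count of 0, came to between 0.742 and 1.01 CPM. Reads from amplified cDNA are not independent molecules, so intervals and this limit cover counting error only. All 10 T cell markers had reads, with a summed level of 4078 and 3858 CPM with TLA1, against 2998 and 3433 CPM with Th9 alone. Of 18 markers of macrophages and dendritic cells, where Axl and Mertk are best known, 13 were at 0 in every library, Lyz2, Csf1r, C1qa, Tyrobp and Spi1 among them. Those 18 markers summed to 9.73 and 4.54 CPM with TLA1, against 3.22 and 1.89 CPM with Th9 alone. Of 6 B cell markers 4 had a read, and their sum was 40.3 and 40.6 CPM with TLA1, against 12.1 and 14.8 CPM with Th9 alone, with Ms4a1 and Pax5 at 0 in all libraries. Of 6 NK cell markers 2 had a read, and their sum was 2.69 and 0.325 CPM with TLA1, against 2.72 and 0.631 CPM with Th9 alone, and no mast cell or basophil marker had a read. Of 8 fibroblast and endothelial markers 3 had a read, and their sum was 48.3 and 36.7 CPM with TLA1, against 33.4 and 35.4 CPM with Th9 alone, and the pair of CD8 T cell markers to 9.73 and 10.1 CPM, against 7.92 and 13.3 CPM. The part of other cells in the levels below was not tested. In bulk RNA, fewer cells that express a gene and less RNA of it per cell cannot be told apart.

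Axl encodes the receptor that GAS6 binds most tightly, and it was the most abundant receptor of the family. It had 713 and 882 reads with TLA1, against 412 and 373 reads with Th9 alone. This is 239 and 286 CPM with TLA1, against 102 and 118 CPM with Th9 alone, and every library with TLA1 lay above every library without it. The counting intervals (95%, Clopper-Pearson) were 222 to 258 and 268 to 306 CPM with TLA1. With Th9 alone they were 92.3 to 112 and 106 to 130.3 CPM. They did not cross between the groups, but those of the 2 libraries with TLA1 did not meet either. The spread within that group thus exceeded counting error, which is all that these intervals cover. The means were 263 ± 33.2 CPM with TLA1 and 109.9 ± 11.2 CPM with Th9 alone (SD, n = 2 each), a ratio of 2.39. On log2(CPM + 1) after scaling between libraries the difference was 1.34 ± 0.20 (SE). By level within a library, Axl ranked 837 and 635 of 23480 identifiers with TLA1, against 2610 and 2099 with Th9 alone. Its log2 difference was between 1.19 and 1.50 whichever library was left out.

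Tyro3, the receptor known best from the nervous system, was found at a much lower level. It had 47 and 86 reads with TLA1, against 49 and 77 reads with Th9 alone. This is 15.8 and 27.9 CPM with TLA1, against 12.1 and 24.3 CPM with Th9 alone, so the groups overlapped. The libraries numbered 2 were the higher ones in both groups. The counting intervals of the 2 libraries with TLA1, 11.6 to 21.0 and 22.3 to 34.5 CPM, did not meet, so the spread within a group exceeded counting error. The means were 21.8 ± 8.58 CPM with TLA1 and 18.2 ± 8.62 CPM with Th9 alone, and the log2 difference of 0.36 ± 0.47 (SE) was smaller than its error.

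Mertk, the receptor most tied to the uptake of dead cells by macrophages, had no read in either library with TLA1, against 0 and 7 reads with Th9 alone. The 7 reads came to 2.21 CPM in Th9 replicate 2, with a counting interval of 0.889 to 4.55 CPM. The 3-read limit for a count of 0 was 1.01 and 0.974 CPM with TLA1 and 0.742 CPM in Th9 replicate 1. A difference between the groups was not detectable at this depth and with reads in Th9 replicate 2 only.

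**Figure D1:**
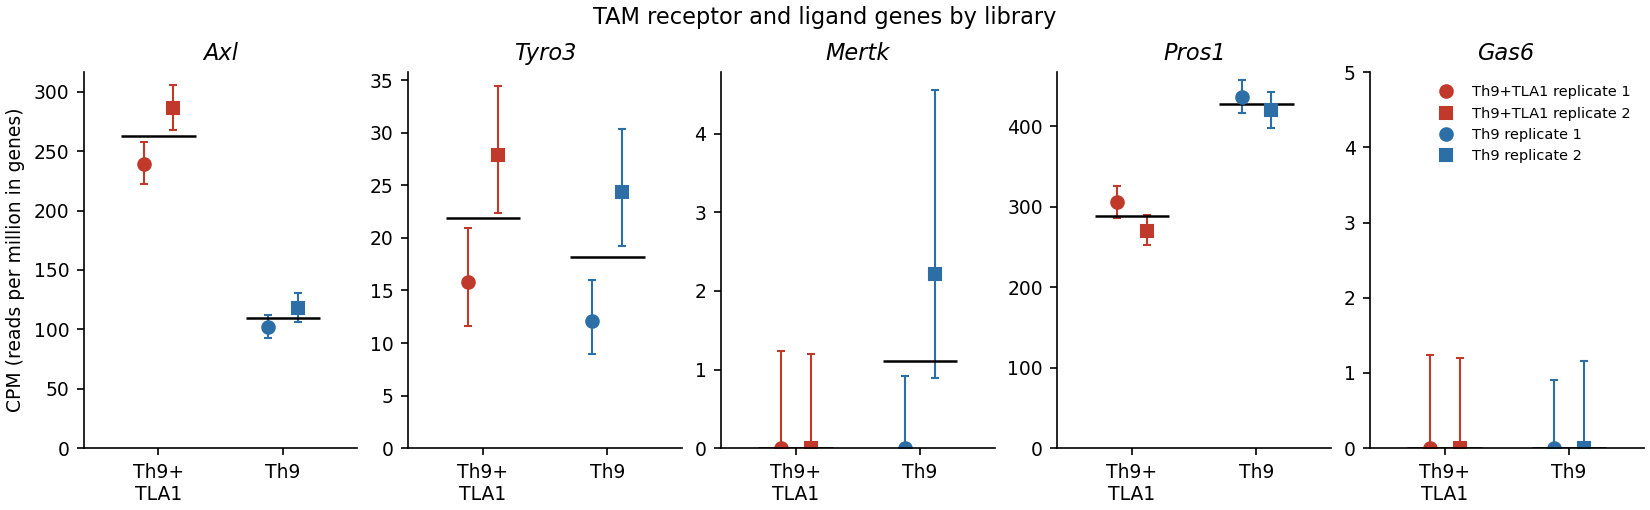
Level of each TAM gene in CPM by library, with Th9+TLA1 left of Th9; points are libraries, bars their two-sided 95% Clopper-Pearson counting intervals (for a count of 0 these end at 0.913 to 1.24 CPM, above the one-sided 3-read limit) and black lines group means, and each panel has its own axis from 0. Axl sits at 239 and 286 CPM with TLA1 against 102 and 118 CPM with Th9 alone, Pros1 at 306 and 270.4 against 436 and 419.9 CPM, Tyro3 overlaps between groups, Mertk has reads in 1 Th9 library, and Gas6 has none.

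Pros1, the gene of protein S, had the groups in the opposite order. It had 911 and 833 reads with TLA1, against 1763 and 1330 reads with Th9 alone. This is 306 and 270.4 CPM with TLA1, against 436 and 419.9 CPM with Th9 alone, and both libraries with TLA1 lay below both libraries without it. The means were 288 ± 25.04 CPM with TLA1 and 428 ± 11.5 CPM with Th9 alone, so that the level with TLA1 was 0.673 of that with Th9 alone. The log2 difference was -0.48 ± 0.17 (SE), and it lay between -0.58 and -0.39 whichever library was left out.

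Gas6, the ligand that all TAM receptors share, had no read in any of the 4 libraries. The 3-read limit was 1.01 and 0.974 CPM with TLA1, against 0.742 and 0.947 CPM with Th9 alone. The ligand RNA measured in these cells was therefore that of Pros1 alone, within this limit.

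Of the 5 members, 3 passed the filter on low counts and were among the 10324 genes fitted with limma. Mertk and Gas6 were not fitted. The threshold was 0.05 for limma p-values adjusted by Benjamini and Hochberg's method over the whole table. Of the 3, 1 (Axl) was past it, beside 1.14% of all genes fitted, and 0 were without Th9+TLA1 replicate 2 or without Th9 replicate 2. The groups did not overlap for 2 members, Axl and Pros1, beside 48.1% of all genes fitted. These counts repeat the difference in Axl that led to the choice of the family, so they are no test of it and nothing is read from them. By size of the log2 difference, Axl, Pros1 and Tyro3 ranked 521, 3579 and 4810 of the 10324 genes.

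To compare levels between genes, CPM were divided by exon length, which is 4283 bases for Axl, 4830 for Tyro3, 4302 for Mertk, 3303 for Pros1 and 2548 for Gas6. In CPM per kb of exon, Pros1 was the highest member in every library, at 92.6 and 81.8 with TLA1, against 132 and 127 with Th9 alone. Axl came next with 55.9 and 66.8 CPM per kb with TLA1, against 23.8 and 27.5 with Th9 alone. Tyro3 followed with 3.27 and 5.78 CPM per kb with TLA1, against 2.51 and 5.03 with Th9 alone. Mertk, with 0.514 CPM per kb in Th9 replicate 2 and 0 elsewhere, and Gas6, at 0 in all libraries, could not be ordered. Neighbours in the order from Pros1 to Axl to Tyro3 did not overlap in either group.

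The balance between Pros1 and Axl within a library does not depend on the scaling between libraries. The ratio of Pros1 to Axl in CPM per kb was 1.66 and 1.22 with TLA1, against 5.55 and 4.62 with Th9 alone. Both libraries with TLA1 lay below both with Th9 alone, and Pros1 remained the higher of the pair per kb in all 4. Axl made up 94.5% and 92.0% of the summed CPM per kb of the 3 receptors with TLA1, against 90.5% and 83.2% with Th9 alone. Axl, whose difference led to the choice of the family, enters the ratio and the share. Their order between the groups in part repeats that difference and is no test of it.

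**Figure D2:**
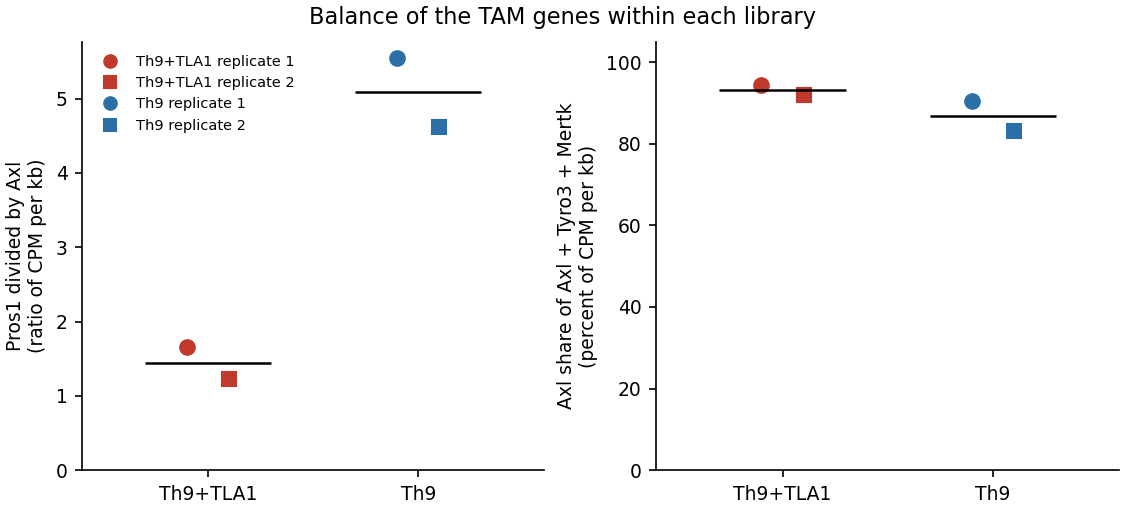
Left, CPM per kb of Pros1 divided by that of Axl; right, the share of Axl in the summed CPM per kb of Axl, Tyro3 and Mertk, in percent. Points are libraries, black lines group means and both axes start at 0. The ratio is 1.66 and 1.22 with TLA1 against 5.55 and 4.62 with Th9 alone. Axl, whose difference led to the choice of the family, enters both panels.

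Among receptor tyrosine kinase genes Axl had the highest level per kb. Of 58 such genes in the files (55 others and the 3 TAM receptors), 28 had no read in any library and 11 had at least 3 reads in every library. Axl was first of the 58 in CPM per kb in each of the 4 libraries. It exceeded the next gene 7.33-fold and 11.6-fold in the libraries with TLA1, against 4.60-fold and 5.46-fold in those with Th9 alone. The next gene was Ddr1, a collagen receptor, in Th9+TLA1 replicate 1, Ryk, a Wnt co-receptor, in Th9 replicate 1, and Tyro3 in the replicate 2 library of either group. Tyro3 ranked 6 and 2 with TLA1, against 7 and 2 with Th9 alone. It lay above Ddr1, Igf1r, Lmtk2 and Ryk in the replicate 2 library of either group and below all of them in Th9 replicate 1, so its place among them differed between libraries.

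**Figure D3:**
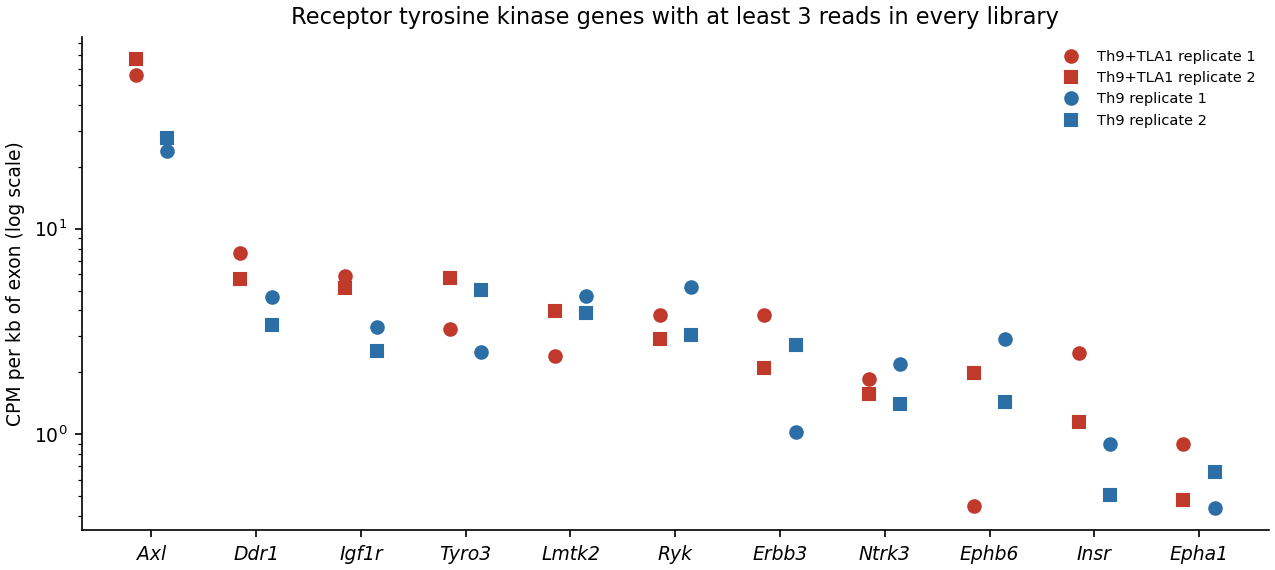
CPM per kb of exon, on a log axis, of the 11 receptor tyrosine kinase genes with at least 3 reads in every library, ordered by their mean; points are libraries, Th9+TLA1 left of Th9 for each gene. Axl lies above the other 10 genes in all 4 libraries. The points of Tyro3, taken over all libraries, overlap those of Ddr1, Igf1r, Lmtk2, Ryk, Erbb3 and Ephb6.

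Of the 55 other receptor tyrosine kinase genes, 10 were fitted and 0 were past the limma threshold. Their median log2 difference was 0.41, beside -0.01 over all genes. At an unadjusted limma p under 0.05, which 16.7% of all genes fitted had, Epha2, Igf1r and Insr were higher. Igf1r, the insulin-like growth factor receptor gene, had 66.8 and 58.7 CPM with TLA1, against 38.1 and 29.0 CPM with Th9 alone (limma adjusted p = 0.124). Ddr1 had 31.2 and 23.4 CPM with TLA1, against 19.1 and 13.9 CPM with Th9 alone (limma adjusted p = 0.336). Ntrk3 (adjusted p = 0.963) and Lmtk2 (0.655) had limma log2 differences of 0.05 and -0.37.

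Around the TAM receptors, 140 genes were set in 8 lists, the other receptor kinases and 7 more that cover the steps from ligand maturation to signalling. Of the 77 fitted, 3 changed, 2 higher and 1 lower with TLA1. That is 3.90% of the 77, beside 1.14% of all genes fitted, of which 0.891% were higher and 0.252% lower. With edgeR's quasi-likelihood test on recovered reads 2 of them changed, beside 1.07% of all genes. The lists' genes together had a median log2 difference of 0.02, beside -0.01 over all genes. The lists were chosen with earlier results of these data known, so their share of changed genes is no test of them.

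The Gla domain of both ligands is made by γ-carboxylation, which uses reduced vitamin K. Of the 6 genes of that cycle 4 were fitted and 0 changed (0 also at an unadjusted limma p under 0.05). Vkorc1, which encodes vitamin K epoxide reductase, had 7.05 and 9.41 CPM with TLA1, against 10.6 and 17.0 CPM with Th9 alone (limma adjusted p = 0.617). Its paralog Vkorc1l1 had a log2 difference of -0.02 (limma adjusted p = 0.990).

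AXL and MERTK are cut from the cell surface by the proteases ADAM10 and ADAM17, so genes of shedding and its inhibitors formed a list. Of 4 fitted genes 1 rose, Timp1, which encodes a metalloproteinase inhibitor. It had 104 and 51.0 CPM with TLA1, against 3.22 and 4.42 CPM with Th9 alone (log2 difference 4.03 ± 0.46 SE, limma adjusted p = 0.00162). Its locus overlaps Syn1 and the cDNA kit does not mark strand, and it was not past the threshold without Th9 replicate 2 (adjusted p = 0.0826). Adam10 had 263 and 218 CPM with TLA1, against 287 and 263 CPM with Th9 alone (limma adjusted p = 0.833). Adam17, whose locus overlaps Iah1, had 65.1 and 106 CPM with TLA1, against 117 and 96.6 CPM with Th9 alone (limma adjusted p = 0.670).

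Phosphatidylserine reaches the outer membrane through scramblases and is pulled back by flippases. Of 8 such genes, all fitted, 0 changed, and 4 had an unadjusted limma p under 0.05. Ano6, a scramblase gene, had 107 and 116 CPM with TLA1, against 72.2 and 68.2 CPM with Th9 alone (limma adjusted p = 0.126). Tmem30a, which encodes the subunit that flippases need and whose locus overlaps Cox7a2, had 510.2 and 557 CPM with TLA1, against 425 and 523 CPM with Th9 alone (limma adjusted p = 0.502). Of the 18 other receptors and bridges for the lipid, 7 were fitted and 0 changed, with 3 at an unadjusted limma p under 0.05. Their median log2 difference was 0.73. Timd2, a TIM family gene, had 58.4 and 63.0 CPM with TLA1, against 41.6 and 36.0 CPM with Th9 alone (limma adjusted p = 0.206). The integrin genes Itgav (0.959) and Itgb3 (0.801) had limma log2 differences of -0.03 and -0.14.

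Downstream, 20 of 22 genes of adaptors and kinases that relay receptor tyrosine kinase signals were fitted, and 1 fell. Fyn, a kinase gene of the SRC family, had 131 and 145 CPM with TLA1, against 302 and 249 CPM with Th9 alone (log2 difference -0.90 ± 0.19 SE, limma adjusted p = 0.0413). It was not past the threshold when any 1 library was left out (adjusted p between 0.109 and 0.217), with no filter on low genes (0.0861) or with edgeR (0.0509). Lck, its relative that starts T cell receptor signalling, had 925 and 956 CPM with TLA1, against 837 and 829 CPM with Th9 alone (limma adjusted p = 0.458). Rac2, a small GTPase gene, had 1039.8 and 897 CPM with TLA1, against 749 and 848 CPM with Th9 alone (limma adjusted p = 0.336).

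Of 14 genes of PI3K and AKT, the main route of TAM signalling, all were fitted and 0 changed, with 3 at an unadjusted limma p under 0.05. Their median log2 difference was -0.17. Pik3cd had 417 and 342 CPM with TLA1, against 283 and 309 CPM with Th9 alone (limma adjusted p = 0.259). Pik3cg, which encodes another PI3K catalytic subunit, had 61.8 and 115 CPM with TLA1, against 153 and 248 CPM with Th9 alone (limma adjusted p = 0.120). Akt1 had 212 and 267 CPM with TLA1, against 281 and 243 CPM with Th9 alone (limma adjusted p = 0.942).

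In mouse dendritic cells AXL joins the interferon receptor and raises Socs1 and Socs3, so these genes and others of that arm formed a list. Of 10 fitted members 1 rose, Socs3, which encodes a feedback inhibitor of JAK and STAT signalling. It had 328 and 356 CPM with TLA1, against 98.5 and 168 CPM with Th9 alone (log2 difference 1.49 ± 0.25 SE, limma adjusted p = 0.0158). It was not past the threshold without Th9+TLA1 replicate 2 (adjusted p = 0.0533) or with no filter on low genes (0.0702). Jak1, whose locus overlaps Raver2, had 580 and 517 CPM with TLA1, against 651 and 678 CPM with Th9 alone (limma adjusted p = 0.638). Socs1 had 165 and 126 CPM with TLA1, against 147 and 140.5 CPM with Th9 alone, so its groups overlapped.

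**Figure D4:**
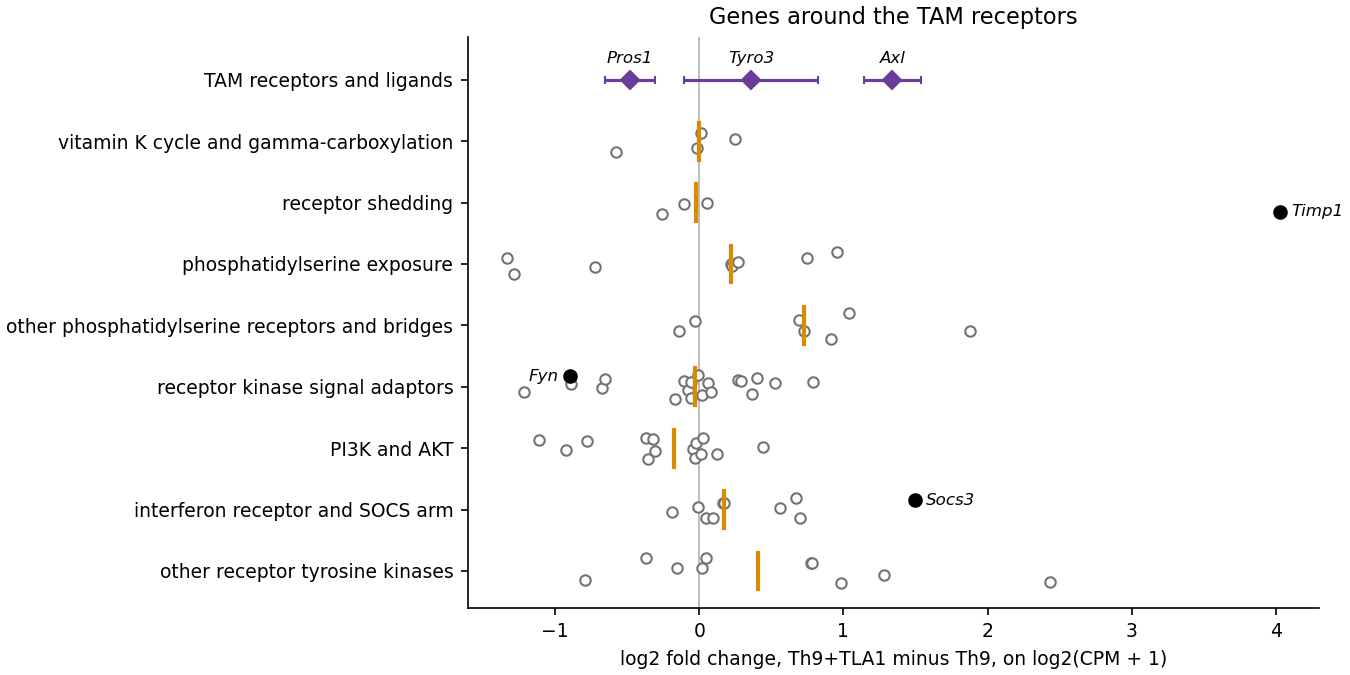
log2 difference, Th9+TLA1 minus Th9, on log2(CPM + 1), for the 3 fitted TAM genes (diamonds with SE) and for each fitted gene of the 8 lists (circles; filled and named where past the limma threshold; orange bars are list medians). Axl is at 1.34, Tyro3 at 0.36 and Pros1 at -0.48, and 3 of the 77 list genes, Timp1, Socs3 and Fyn, are filled.

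Genes with a pattern most like that of Axl were found by the root mean square difference of their centred log2(CPM + 1) from that of Axl over the 4 libraries, among 9940 fitted genes outside the family that are not predicted models. The 5 closest were Flrt3, Zfp296, Ubtd1, Tnfrsf26 and Cysltr1, at 0.05 to 0.08, beside a median of 0.74 over all genes compared. Cysltr1, which encodes a receptor for cysteinyl leukotrienes, had 97.3 and 118 CPM with TLA1, against 47.3 and 49.9 CPM with Th9 alone. Tnfrsf26, a TNF receptor superfamily gene, had 54.4 and 57.8 CPM with TLA1, against 21.8 and 26.5 CPM with Th9 alone. Ubtd1 had 28.2 and 33.8 CPM with TLA1, against 12.1 and 12.3 CPM with Th9 alone. Flrt3, whose locus overlaps Macrod2, and Zfp296 were lower, with 5.71 to 14.0 CPM with TLA1, against 1.73 to 5.37 CPM with Th9 alone. With 4 libraries in 2 groups, any gene with a similar difference and a small spread comes close on this measure.

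**Figure D5:**
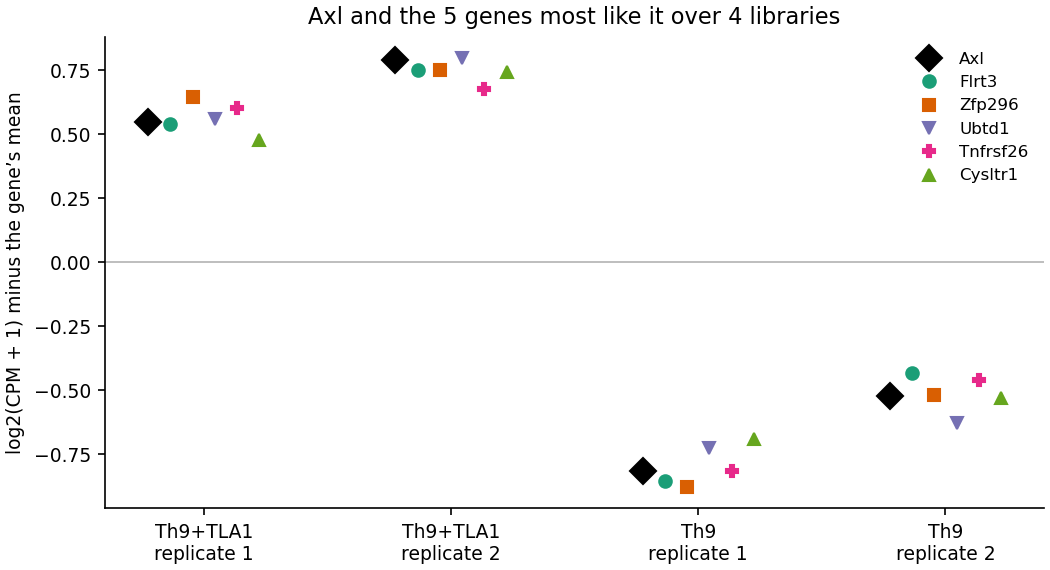
log2(CPM + 1) minus each gene's own mean over the 4 libraries, for Axl (large diamonds) and the 5 genes closest to it; points are spread sideways within a library. All 6 genes lie above 0 in both libraries with TLA1, highest in replicate 2, and below 0 in both libraries with Th9 alone, lowest in replicate 1.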

How the data were processed

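The values the authors deposited are CPM, 1 file for each of 4 libraries; per the labels' protocols, cDNA was made from total RNA with a SMARTer Ultra Low Input kit, which does not mark strand, and sequenced on an Ion Torrent instrument. Per the submitters' processing notes, the tools were HTSeq 0.5.4 and edgeR and the build mm10, with no aligner or annotation given in the sources used here. Every non-zero value (100%) was a whole multiple of 1 read within 0.01 of a read, so reads were recovered.

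Entrez identifiers were matched to a RefSeq table of GRCm38.p6 (23383 of 23480). Exon lengths are unions of protein-coding exons in GENCODE M21. Low genes were removed with filterByExpr on recovered reads (minimum count 10). CPM were divided by TMM factors (0.964 to 1.06), and limma (lmFit, then eBayes with a trend) was run on log2(CPM + 1) with the group as the sole term; fold changes of low genes are understated by the pseudocount of 1. Calls used p-values adjusted over all 10324 genes (Benjamini-Hochberg) and a threshold of 0.05. The fit was tested on simulated data. The groups' replicates differed by 6.65 and 10.6 times sampling noise (chi-square per degree of freedom), so none is a copy.

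The members and lists were chosen with earlier results of these data known. Genes named were the members, overlapping genes, the 5 most like Axl, and in each list every called gene and, up to 3, its most abundant ones (for receptor kinases also per kb); Socs1, Epha2 and Insr were named after their values were seen, and 3 genes that the rule names are not reported here. Alternatives were other scaling, filters and pseudocounts, edgeR, DESeq2 and voom on recovered reads, the replicate block, and leaving out each library. The tools were limma 3.58.1, DESeq2 1.42.0 and edgeR 4.0.16 under R 4.3.3, and scipy 1.17.1 and Biopython 1.88 under Python 3.11.15.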

Additional observations from a re-analysis of the deposited data

How the results depend on the processing

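The 118 genes past the threshold became 73 with total count scaling, 33 with no filter on low genes, 275 with DESeq2 and 110 with edgeR, and 19 to 155 when 1 library was left out (42 without Th9 replicate 1, 19 without Th9 replicate 2). The 3 genes of the lists around the TAM receptors became 1 with no filter, 5 with DESeq2, 2 with edgeR, and 1 to 3 when 1 library was left out (1 without Th9 replicate 2). Replicate numbers were not shown to pair libraries: the correlation between groups of the difference between numbers 1 and 2 was -0.01 over 10324 genes. With the replicate block 225 genes and 6 list genes were past the threshold. Over the 15 alternatives the log2 difference was between 1.19 and 1.50 for Axl, between -0.58 and -0.39 for Pros1 and between -0.16 and 0.88 for Tyro3, whose sign changed without Th9+TLA1 replicate 2 (-0.03) and without Th9 replicate 1 (-0.16). Mertk was fitted only with no filter, and Gas6 under no setting. With 2 libraries a group, depth limits Gas6, and the spread between libraries limits Tyro3. Both limit Mertk, which had 7 reads in Th9 replicate 2 and 0 in the deeper Th9 replicate 1.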
